A study of Mus musculus with 12 samples.

Results

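The aryl hydrocarbon receptor (AhR) genes described here were Ahr, Arnt, Ahrr, Tiparp, Cyp1b1, Nqo1 and Nfe2l2, and all 7 had a row among the 13283 genes of an RNA sequencing table from mouse cytotoxic T lymphocytes (CTL). They were taken by gene symbol, but the set was chosen by measured values, since the responses of these transcripts to a PI3K inhibitor in the same libraries were already known. Their responses to the inhibitor are therefore given as values, and tests were kept for the comparison of genotypes. CTL are effector CD8 T cells, grown here from lymph node or spleen cells of female mice aged 11 to 27 weeks by activation through CD3 and CD28 for 48 h and culture in IL-2 and IL-12. Both genotypes carried a Cre recombinase transgene driven by the granzyme B promoter. WT CTL (GzmB cre+) had an unmodified Foxo1, and FOXO1-GFP KO CTL (FOXO1-GFPfl/fl Gzmb cre+) carried floxed GFP-tagged Foxo1 alleles. On day 6 CTL of each genotype were given DMSO as vehicle (groups WT and FOXO1-GFP KO) or 10 µM IC87114 (groups WT+PI3Kdi and FOXO1-GFP KO+PI3Kdi) for 24 h. IC87114 inhibits p110δ, a catalytic subunit of PI3K found mainly in leukocytes. Live CD8+ cells were sorted, with GFP-negative cells taken for FOXO1-GFP KO, so deletion began only once granzyme B was switched on and the knockout cells were those that had lost the tag. The 4 groups held 3 libraries each, and replicate numbers pair the vehicle with the PI3Kdi library of one genotype.

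AhR is a ligand-activated transcription factor of the bHLH-PAS family that waits in the cytosol with HSP90 chaperones. Dioxin-like pollutants and indoles or kynurenines made from tryptophan release it into the nucleus, where it pairs with ARNT and binds DNA at a short GC-rich core. Among the genes it switches on are cytochromes such as Cyp1b1 and the feedback inhibitors Ahrr and Tiparp, while Nqo1 and Nfe2l2 tie it to the NRF2 antioxidant programme. In T cells AhR is best known from Th17 and regulatory cells and from resident CD8 T cells of barrier tissues.

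Upstream sequence is shown for Ahrr, Tiparp and Cyp1b1 because these were the 3 feedback or enzyme targets that were higher with PI3Kdi in every pair of libraries. Each sequence is the 250 bases before the transcription start given by RefSeq on GRCm38.p6, read 5′ to 3′ on the strand of the gene, and capitals mark matches to GCGTG, the core bound by AhR with ARNT, on either strand (CACGC is the match on the other strand).
Ahrr, chr13:74292332-74292581, minus strand: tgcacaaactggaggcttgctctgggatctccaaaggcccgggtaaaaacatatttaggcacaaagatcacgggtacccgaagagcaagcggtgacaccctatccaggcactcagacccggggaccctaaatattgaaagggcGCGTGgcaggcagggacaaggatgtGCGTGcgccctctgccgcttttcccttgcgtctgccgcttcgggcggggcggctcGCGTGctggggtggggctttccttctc
Tiparp, chr3:65528197-65528446, plus strand: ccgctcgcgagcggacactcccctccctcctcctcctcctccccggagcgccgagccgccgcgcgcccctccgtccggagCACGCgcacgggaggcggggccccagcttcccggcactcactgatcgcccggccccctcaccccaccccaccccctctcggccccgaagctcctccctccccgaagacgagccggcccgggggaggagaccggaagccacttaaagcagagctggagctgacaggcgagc
Cyp1b1, chr17:79715062-79715311, minus strand: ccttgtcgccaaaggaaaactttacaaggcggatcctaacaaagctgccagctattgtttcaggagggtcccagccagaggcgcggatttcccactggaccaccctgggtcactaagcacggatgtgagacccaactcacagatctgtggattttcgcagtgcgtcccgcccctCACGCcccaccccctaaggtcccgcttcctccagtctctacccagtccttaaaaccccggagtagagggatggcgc
Ahrr held 3 matches, whose first bases lay 107, 82 and 27 bases before the start. Tiparp held 1 match at 170 bases, Cyp1b1 1 at 76 bases and Arnt 1 at 29 bases, and none was found in these windows of Nqo1 and Nfe2l2. Over all 32851 RefSeq mouse windows of this length, 28.2% held at least 1 match and 2.77% held 3 or more. TGACNNNGC, the antioxidant response core bound by NRF2, matched 2 times in Arnt and 1 time in Nfe2l2 and is present in 10.2% of windows. GTAAACA, a FOXO-binding sequence, matched in 0 of the 6 windows and is present in 3.17% of all. The windows of Ahrr and Cyp1b1 had a GC content of 60.4% and 58.0%, that of Tiparp 75.2%, and the median over all windows was 52.4%. Ahr had no entry among the promoters used. These matches describe letters in the windows and say nothing of binding.

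Values are FPKM as deposited, read counts scaled to exon length and library size, and fold changes are differences of log2(FPKM + 0.1). Depth recovered from the spacing of low values was 12.9 to 48.0 M reads (M, 1e6) in a library. Foxo1, the targeted gene, was 5.77 to 10.46 FPKM in the 6 WT libraries with or without PI3Kdi and 0.58 to 1.75 FPKM in the 6 FOXO1-GFP KO libraries. Its log2 fold change averaged over PI3Kdi was -2.74 (SE 0.35, limma adjusted p = 0.0287), so every library matched its genotype label. All 9 markers of CD8 T cells were in the table, and none of them differed between groups by the call rule used here, a limma p under 0.05 after Benjamini-Hochberg adjustment over the whole table together with a fold change over 1.5. Mitochondrial transcripts made up 3.11 to 6.80% of FPKM, lowest in WT replicate 1. The labels call the 3 libraries of a group biological replicates without saying whether each came from its own mouse, so errors and p-values measure the spread between these libraries. In bulk RNA, fewer cells carrying a transcript and less of it per cell cannot be told apart.

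Ahr, the receptor itself, was most abundant in WT CTL and least in FOXO1-GFP KO CTL under PI3Kdi. WT CTL had 11.07, 5.18 and 5.94 FPKM in replicates 1, 2 and 3 with vehicle (mean 7.40 ± 3.20, SD, n = 3) and 7.29, 3.97 and 3.79 FPKM with PI3Kdi (5.02 ± 1.97). FOXO1-GFP KO CTL had 3.38, 3.90 and 2.35 FPKM with vehicle (3.21 ± 0.79) and 3.22, 2.98 and 2.21 FPKM with PI3Kdi (2.80 ± 0.53). The WT replicate 1 pair stood above every other library, and with or without the inhibitor the 3 WT libraries did not overlap those of FOXO1-GFP KO at the same treatment. Ordered by mean, from WT through WT+PI3Kdi and FOXO1-GFP KO down to FOXO1-GFP KO+PI3Kdi, each group overlapped the next. By depth and exon length these values rest on an estimated 186 to 1715 reads in a library. The gene lies at chr12:35497974-35535038 on the minus strand, where a lincRNA on the opposite strand, Gm48236, overlaps its exons. That lincRNA had no row in the table, and whether counting used strand was not given in the sources used here.

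**Figure D1:**
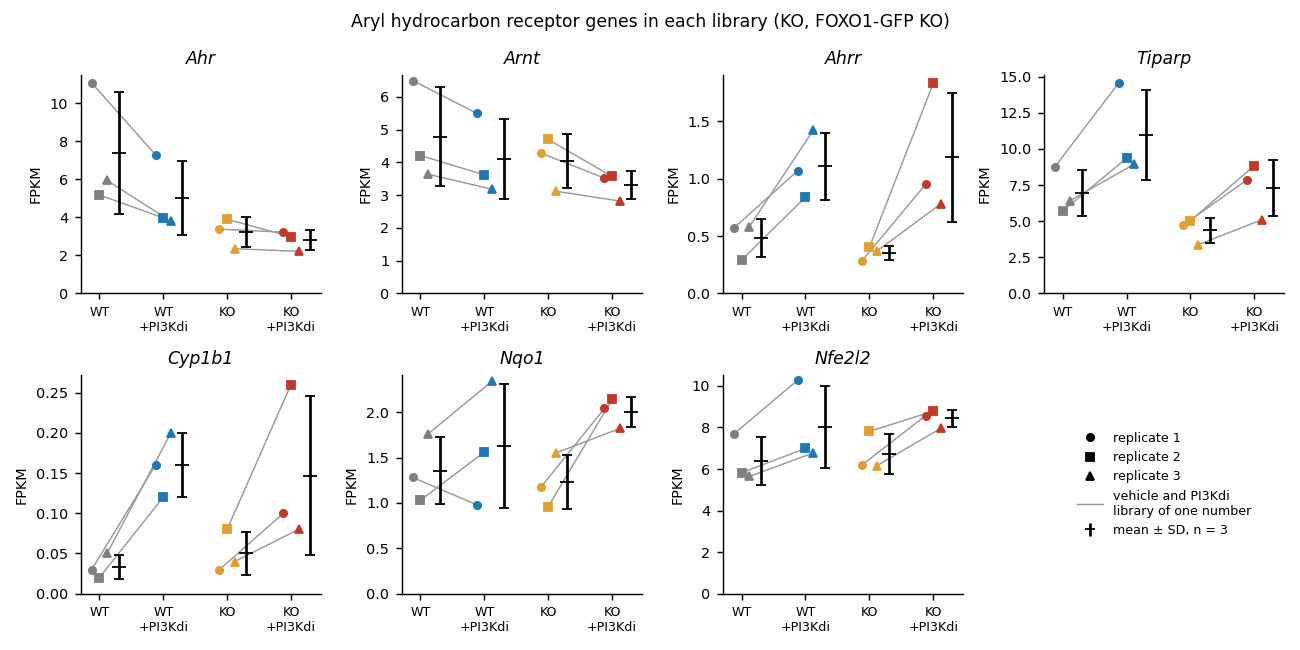
FPKM (y axis, from 0) of the 7 AhR genes in each of the 12 libraries, by group (x axis). Symbols give the replicate, lines join the vehicle and PI3Kdi library of one number, and bars give the mean ± SD of 3 libraries. Ahr is 5.18 to 11.07 FPKM in WT and 2.35 to 3.90 FPKM in FOXO1-GFP KO, and every line of Ahrr, Tiparp, Cyp1b1 and Nfe2l2 goes up from vehicle to PI3Kdi.

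Arnt, the DNA-binding partner that AhR shares with the hypoxia-inducible factors, varied less. WT CTL had 6.50, 4.21 and 3.64 FPKM with vehicle and 5.50, 3.62 and 3.18 FPKM with PI3Kdi. For FOXO1-GFP KO CTL the values were 4.29, 4.70 and 3.12 FPKM with vehicle and 3.52, 3.57 and 2.82 FPKM with PI3Kdi. The ranges of all neighbouring groups overlapped, and WT replicate 1 was again the highest library. Means were 4.78 ± 1.51 and 4.10 ± 1.23 FPKM in WT CTL without and with PI3Kdi, and 4.04 ± 0.82 and 3.30 ± 0.42 FPKM in FOXO1-GFP KO CTL.

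The question of whether losing FOXO1 altered this pathway was addressed by the genotype comparison averaged over PI3Kdi, a contrast that does not use the inhibitor response by which the genes were chosen. Other earlier results of these data were also known at that choice, so this contrast is not assured to be free of it. Ahr was lower in FOXO1-GFP KO CTL by a log2 fold change of -0.95 (SE 0.29, 95% interval -1.62 to -0.28), a fold change of 0.518. This did not pass the test over all genes (limma adjusted p = 0.366). Tiparp, an ADP-ribosyltransferase that dampens AhR, had a log2 fold change of -0.62 (SE 0.23, interval -1.17 to -0.08, limma adjusted p = 0.545). The remaining 5 genes lay between -0.24 for Arnt and 0.11 for Nqo1, each with an interval that included 0. The intervals were -0.79 to 0.30 for Arnt, -0.77 to 0.47 for Ahrr, -0.51 to 0.54 for Cyp1b1, -0.42 to 0.65 for Nqo1 and -0.30 to 0.48 for Nfe2l2. In all, 0 of the 7 genes were called, against 0.331% of all genes.

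Within each treatment the values were alike, though these comparisons share libraries with the contrasts by which the genes were chosen. Without PI3Kdi the log2 fold change of Ahr was -1.13 (SE 0.32, limma adjusted p = 0.25) and that of Tiparp -0.66 (SE 0.26, adjusted p = 0.584). With PI3Kdi that of Ahr was -0.77 (SE 0.32, limma adjusted p = 0.429) and that of Tiparp -0.59 (SE 0.26, adjusted p = 0.465). Without WT+PI3Kdi replicate 1 these were -0.47 and -0.37, and without FOXO1-GFP KO+PI3Kdi replicate 3 that of Tiparp was -0.36. No gene of the 7 was called in either treatment, where 0.331% of all genes were called without and 1.45% with PI3Kdi. Ahr and Tiparp were the 2 whose FOXO1-GFP KO libraries all lay below the WT libraries, in both treatments, as did 6.79% of all genes without and 7.90% with PI3Kdi. Leaving out the WT replicate 1 pair, the averaged log2 fold change was -0.64 for Ahr (limma adjusted p = 0.503) and -0.43 for Tiparp (adjusted p = 0.842). With replicate numbers as a block shared by all groups, Ahr without PI3Kdi was called (limma adjusted p = 0.0345), a block for which libraries of one number correlated across genotypes for replicates 1 and 3 but not for replicate 2.

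**Figure D2:**
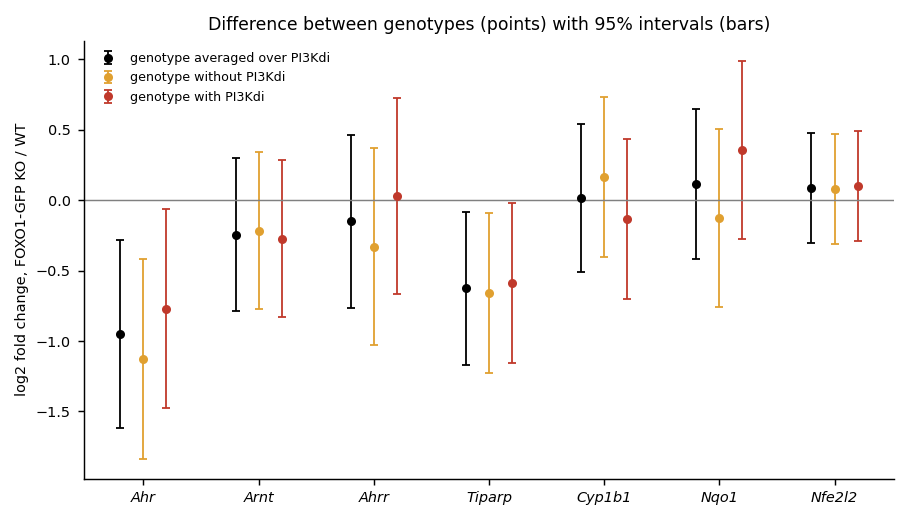
Log2 fold change of FOXO1-GFP KO over WT (y axis) for the 7 AhR genes (x axis), averaged over PI3Kdi (black), without PI3Kdi (yellow) and with PI3Kdi (red). Points are limma estimates and bars their 95% intervals, and the intervals of Ahr and Tiparp lie below 0 in all 3 comparisons while those of the other 5 genes include 0.

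Ahr was also set against Arnt within each library, a ratio that no scaling of libraries can move and that was chosen after the values were seen. In WT CTL the ratio was 1.70, 1.23 and 1.63 with vehicle and 1.33, 1.10 and 1.19 with PI3Kdi. In FOXO1-GFP KO CTL the ratio was 0.788, 0.830 and 0.753 with vehicle and 0.915, 0.835 and 0.784 with PI3Kdi. Thus Ahr exceeded Arnt, per length, in all 6 WT libraries and was below it in all 6 FOXO1-GFP KO libraries, and WT replicate 1 no longer stood alone. Over means of pairs the log2 ratio in FOXO1-GFP KO minus that in WT was -0.72, a fold of 0.606, with an exact two-sided permutation p of 0.1, the smallest that 3 against 3 allows. Leaving out each pair of libraries in turn gave -0.83 to -0.64.

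Ahrr, the AhR repressor, competes with AhR for ARNT and is itself induced by AhR. WT CTL had 0.57, 0.29 and 0.58 FPKM with vehicle and 1.07, 0.84 and 1.42 FPKM with PI3Kdi. FOXO1-GFP KO CTL had 0.28, 0.40 and 0.37 FPKM with vehicle and 0.95, 1.83 and 0.78 FPKM with PI3Kdi. Within each genotype every PI3Kdi library was above every vehicle library, a separation seen for 4.43% of all genes in WT and 5.28% in FOXO1-GFP KO. The ratio of the PI3Kdi to the vehicle library was 1.88, 2.9 and 2.45 in the WT pairs (geometric mean 2.37) and 3.39, 4.58 and 2.11 in the FOXO1-GFP KO pairs (3.20). The vehicle groups overlapped each other (means 0.48 ± 0.17 FPKM in WT and 0.35 ± 0.06 in FOXO1-GFP KO), as did the PI3Kdi groups (1.11 ± 0.29 and 1.19 ± 0.56). Even so Ahrr remained a minor transcript, with 18.6% of genes in the table below its mean over all libraries and an estimated 45 to 364 reads behind each value.

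Relative to the receptor, the ratio of Ahrr to Ahr in WT CTL was 0.0515 to 0.0976 with vehicle and 0.147 to 0.375 with PI3Kdi. In FOXO1-GFP KO CTL it lay between 0.0828 and 0.157 with vehicle and between 0.295 and 0.614 with PI3Kdi. The PI3Kdi libraries lay above the vehicle libraries of the same genotype without overlap. Ahrr rose and Ahr fell in every pair, responses known when the genes were chosen, so this separation is a description and tests nothing. This ratio was also taken up after its values were seen, and the share of other gene ratios that separate so was not computed. Between genotypes, over means of pairs, the ratio was 1.72-fold higher in FOXO1-GFP KO, with an exact two-sided permutation p of 0.2.

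Tiparp, the other feedback inhibitor, was among the more abundant of these transcripts. WT CTL had 8.77, 5.71 and 6.43 FPKM with vehicle and 14.59, 9.35 and 8.95 FPKM with PI3Kdi. For FOXO1-GFP KO CTL these were 4.70, 5.02 and 3.37 FPKM with vehicle and 7.84, 8.85 and 5.10 FPKM with PI3Kdi. Within each genotype the PI3Kdi libraries were all above the vehicle libraries, and FOXO1-GFP KO CTL under the inhibitor overlapped WT CTL without it. The PI3Kdi to vehicle ratio was 1.66, 1.64 and 1.39 in the WT pairs (geometric mean 1.56) and 1.67, 1.76 and 1.51 in the FOXO1-GFP KO pairs (1.64). Relative to Ahr, Tiparp in WT CTL was at 0.792 to 1.10 with vehicle and 2.0 to 2.36 with PI3Kdi, and FOXO1-GFP KO CTL had ratios of 1.29 to 1.43 and 2.31 to 2.97. Over means of pairs this ratio was 1.26-fold higher in FOXO1-GFP KO, with an exact two-sided permutation p of 0.1, again the smallest possible. The ratio of Tiparp to Ahr was also taken up after its values were seen, so that p is a description only. Exons of a transcribed pseudogene on the opposite strand, 4931440P22Rik, overlap those of Tiparp at chr3:65528410-65555518, and it had no row in the table.

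**Figure D3:**
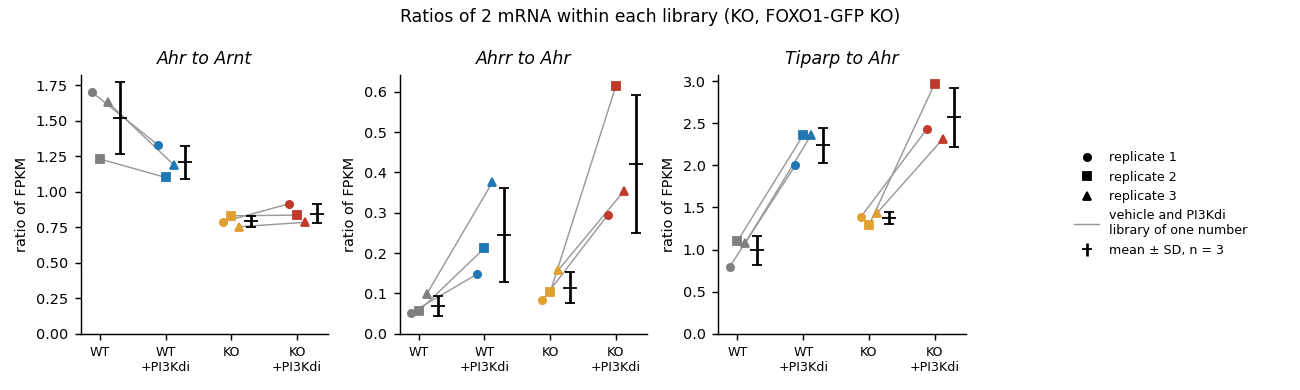
Ratio of FPKM (y axis, from 0) of Ahr to Arnt, Ahrr to Ahr and Tiparp to Ahr within each library, by group (x axis). Symbols give the replicate, lines join the libraries of one number and bars give the mean ± SD of 3 libraries. Ahr to Arnt is 1.10 to 1.70 in the WT libraries and 0.753 to 0.915 in those of FOXO1-GFP KO, and the other ratios are higher with PI3Kdi in every pair.

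Cyp1b1, a cytochrome P450 that oxidises steroids and polycyclic hydrocarbons and is a standard AhR target, was close to the floor of the table. WT CTL had 0.03, 0.02 and 0.05 FPKM with vehicle and 0.16, 0.12 and 0.20 FPKM with PI3Kdi. FOXO1-GFP KO CTL had 0.03, 0.08 and 0.04 FPKM with vehicle and 0.10, 0.26 and 0.08 FPKM with PI3Kdi. WT and WT+PI3Kdi did not overlap, while the FOXO1-GFP KO groups touched at 0.08 FPKM. These values stand for an estimated 3 to 32 reads in a library, and rounding to 2 decimals alone is a large part of the lowest ones. Estimated reads were 4 to 8 in WT and 3 to 15 in FOXO1-GFP KO, against 11 to 18 and 8 to 32 with PI3Kdi. The table holds only genes that passed the authors' filter on read counts. Cyp1b1 may therefore be in it only through its PI3Kdi libraries. The pair ratios were 5.33, 6.0 and 4.0 in WT and 3.33, 3.25 and 2.0 in FOXO1-GFP KO. That last pair had 8 reads against 3, a ratio per depth of 1.95 with an exact 95% interval of 0.469 to 11.4 that covers counting error only. On the log2(FPKM + 0.1) scale the fitted response of WT CTL was 0.96 and that of FOXO1-GFP KO CTL 0.66, and with a pseudocount of 0.01 they were 2.0 and 1.30, so their size depends on the pseudocount.

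Nqo1 and Nfe2l2 sit where AhR meets the antioxidant response. Nqo1, a quinone reductase that both AhR and NRF2 can induce, was measured at 1.28, 1.03 and 1.76 FPKM in WT CTL with vehicle and 0.98, 1.56 and 2.34 FPKM with PI3Kdi. FOXO1-GFP KO CTL had 1.17, 0.96 and 1.55 FPKM of it with vehicle and 2.04, 2.14 and 1.82 FPKM with PI3Kdi. The FOXO1-GFP KO groups did not overlap, the WT groups did, and the WT replicate 1 pair alone had less Nqo1 with the inhibitor (ratio 0.766, against 1.17 to 2.23 in the other 5 pairs). An estimated 29 to 97 reads stood behind each of these values. Nfe2l2, which encodes NRF2, was more abundant, with 7.69, 5.82 and 5.64 FPKM in WT CTL given vehicle and 10.28, 6.99 and 6.77 FPKM in those given PI3Kdi. The FOXO1-GFP KO CTL had 6.18, 7.81 and 6.16 FPKM of it with vehicle and 8.57, 8.78 and 7.96 FPKM with PI3Kdi. Its 6 pair ratios lay between 1.12 and 1.39, smaller than those of Ahrr, Tiparp and Cyp1b1, and its WT groups overlapped while its FOXO1-GFP KO groups did not.

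Of the 7 genes 6 went one way in all 6 pairs, as did 23.2% of all genes. Ahrr, Tiparp, Cyp1b1 and Nfe2l2 were higher with PI3Kdi in 6 of 6 pairs, as were 9.20% of all genes, and Nqo1 was higher in 5 of 6. Cyp1b1 may have passed the filter on read counts only through its PI3Kdi libraries, so its place in these counts carries no weight. Ahr and Arnt were lower in 6 of 6 pairs, as were 1857 of the 13283 genes. The ratio of Arnt lay between 0.76 and 0.904, and that of Ahr was 0.659, 0.766 and 0.638 in the WT pairs and 0.953, 0.764 and 0.940 in the FOXO1-GFP KO pairs. The fitted log2 responses, WT first and FOXO1-GFP KO second, were 1.08 and 1.44 for Ahrr, 0.63 and 0.71 for Tiparp, 0.20 and 0.68 for Nqo1, 0.31 and 0.33 for Nfe2l2, -0.21 and -0.27 for Arnt, and -0.54 and -0.18 for Ahr. Some of these rest on single libraries. The WT response of Ahr was -0.21 without WT replicate 1 and -0.83 without WT+PI3Kdi replicate 1, and that of Arnt was 0.03 without WT replicate 1. In FOXO1-GFP KO the response of Ahr was -0.02 without PI3Kdi replicate 3 and -0.38 without vehicle replicate 3. With a pseudocount of 1 FPKM the responses of Ahrr were 0.51 and 0.67. The difference between the genotypes' responses had 0 calls among all genes (200 at an unadjusted limma p under 0.05) and 3 with the pairs within a genotype as a block (0.0226%).

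**Figure D4:**
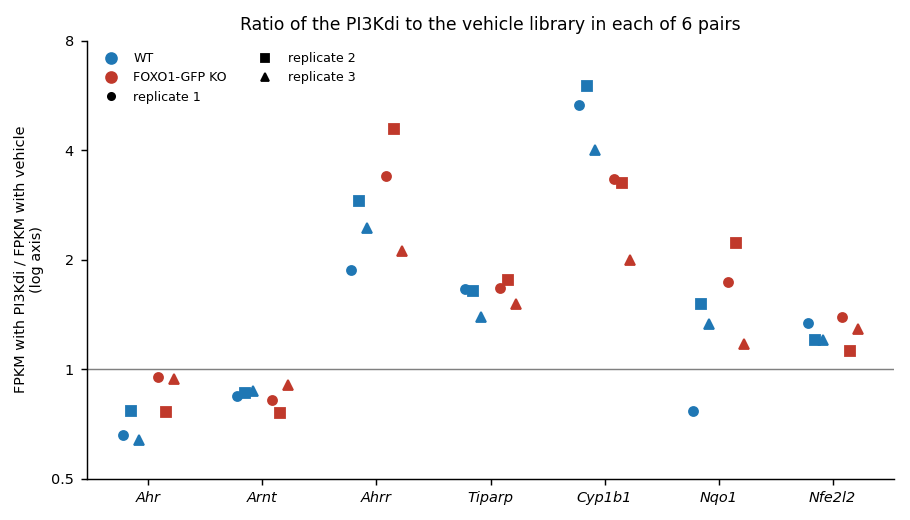
Ratio of FPKM with PI3Kdi to FPKM with vehicle (y axis, log scale) for the 7 AhR genes (x axis) in each of the 6 pairs of libraries, WT in blue and FOXO1-GFP KO in red, with symbols for the replicate. All 6 points lie above 1 for Ahrr (1.88 to 4.58), Tiparp (1.39 to 1.76), Cyp1b1 (2.0 to 6.0) and Nfe2l2 (1.12 to 1.39) and below 1 for Ahr and Arnt.

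Other genes of the pathway were taken as lists by function. Of the 12 chaperones and co-regulators that hold or assist AhR, all 12 were in the table and 0 were called in any of the comparisons. With PI3Kdi the WT and FOXO1-GFP KO responses of this list had medians of -0.06 and -0.12 on the log2 scale, beside -0.04 and -0.02 over all genes. Hsp90ab1, the most abundant of them, had 1220 ± 88 FPKM in WT CTL with vehicle and 1190 ± 42 with PI3Kdi, and in FOXO1-GFP KO CTL 1270 ± 129 and 1220 ± 160 (n = 3 each). Hsp90aa1 followed with 194 ± 38 and 170 ± 34 FPKM in WT CTL and 187 ± 43 and 148 ± 39.5 FPKM in FOXO1-GFP KO CTL.

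Of 20 further AhR targets 8 were in the table. Cyp1a1, Cyp1a2, Aldh3a1 and Il22 were not among them and were not analysed here. With PI3Kdi 0 of the 8 were called in either genotype by the main fit, which leaves out the pairing. That fit called 0.0979% of all genes in WT and 0.0452% in FOXO1-GFP KO. Above 0 were 2 of the 8 in WT and 4 in FOXO1-GFP KO, and the median log2 responses were -0.07 (WT) and -0.02 (FOXO1-GFP KO), beside the same -0.04 and -0.02 over all genes. Il10, an anti-inflammatory cytokine, responded by -0.04 on the log2 scale among WT pairs and by 0.44 among FOXO1-GFP KO pairs. Slc7a5, which carries tryptophan and kynurenine into the cell, had -0.25 and -0.28 and pair ratios of 0.803 to 0.894, and neither gene was called. Xdh, xanthine dehydrogenase of purine breakdown, was the 1 called in any comparison. WT CTL had 8.60, 6.55 and 6.02 FPKM with vehicle and 12.79, 9.99 and 10.43 FPKM with PI3Kdi. For FOXO1-GFP KO CTL these were 4.90, 5.22 and 3.45 FPKM with vehicle and 4.92, 5.42 and 3.45 FPKM with PI3Kdi. Under PI3Kdi it was lower in FOXO1-GFP KO by a log2 of -1.27 (SE 0.21, limma adjusted p = 0.0113), and without the WT+PI3Kdi replicate 1 library it missed the threshold (-1.16, adjusted p = 0.0503). With the block within genotype Xdh also rose with PI3Kdi in WT (0.65, limma adjusted p = 0.00104), where 2.57% of all genes were called, and was lower in FOXO1-GFP KO on average (-0.95, adjusted p = 0.024), in a comparison where the block called 0.670% of all genes. Its pair ratios were 1.49 to 1.73 in WT and 1.0 to 1.04 in FOXO1-GFP KO, and the difference between the responses was -0.63 (limma adjusted p = 1). Tiparp, by comparison, had pair ratios of 1.39 to 1.66 in WT and 1.51 to 1.76 in FOXO1-GFP KO. The authors list both Xdh and Tiparp as induced by PI3Kdi in WT and lower in FOXO1-GFP KO under PI3Kdi. They class both as regulated by p110δ through FOXO1.

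Of 16 bHLH-PAS relatives, which include the HIF and clock factors that also use ARNT or its kin, 10 were in the table and 0 were called. Hif1a, the most abundant, had 26.93 to 76.68 FPKM in WT CTL and 20.53 to 38.35 FPKM in FOXO1-GFP KO CTL with vehicle. With PI3Kdi Hif1a had 30.75 to 84.48 and 18.92 to 35.27 FPKM (log2 fold change between genotypes -0.89, limma adjusted p = 0.55). Its pair ratios were 1.1 to 1.28 in WT and 0.74 to 0.929 in FOXO1-GFP KO. The authors include Hif1a among the FOXO1-dependent mRNA of these CTL. Per1, a clock repressor, had 6.44 ± 1.23 and 5.07 ± 0.52 FPKM in WT and FOXO1-GFP KO CTL with vehicle. Epas1, which encodes HIF-2α, had 4.19 ± 1.25 FPKM in WT CTL with vehicle and 2.63 ± 0.37 with PI3Kdi, and FOXO1-GFP KO CTL had 4.36 ± 1.56 and 2.71 ± 0.85. With the block within genotype it fell by 0.63 on the log2 scale in WT (limma adjusted p = 0.017) and by 0.65 in FOXO1-GFP KO (adjusted p = 0.014), where 2.79% of all genes were called, and without the block neither was called. Between genotypes 9 of the 10 relatives had a log2 fold change below 0 on average (median -0.21, beside -3e-04 over all genes), with none called.

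Of 27 partners and targets of NRF2 25 were in the table, and 0 were called in any comparison, with or without the block within genotype. The median log2 response of the list to PI3Kdi was -0.04 for WT and -0.07 for FOXO1-GFP KO CTL, and 8 and 9 of the 25 were above 0. Txn1 (thioredoxin) had 498 ± 129 FPKM in WT CTL with vehicle and 470 ± 93 with PI3Kdi, and 531 ± 138 and 569 ± 107 FPKM in FOXO1-GFP KO CTL. Ftl1, the ferritin light chain, was likewise not called, at 332 ± 50 and 303 ± 52 FPKM in WT without and with PI3Kdi and 372 ± 6 and 362 ± 18 in FOXO1-GFP KO. Of 16 genes that make, carry or use tryptophan-derived AhR ligands, 9 were in the table and 0 were called. Slc3a2, the partner chain of Slc7a5, was at 65.1 ± 5.3 and 57.9 ± 6.5 FPKM in WT CTL without and with PI3Kdi, and at 80.6 ± 6.6 and 76.7 ± 9.3 FPKM in FOXO1-GFP KO CTL.

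**Figure D5:**
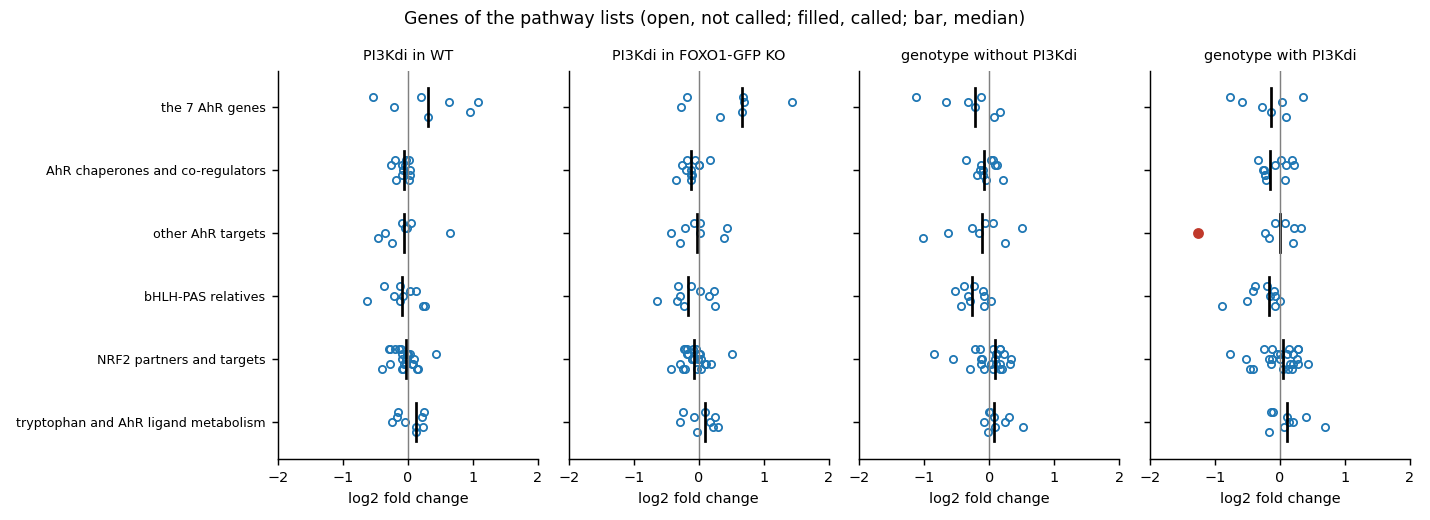
Log2 fold change (x axis) of each gene of the 7 AhR genes and of the 5 pathway lists (rows) in 4 comparisons (panels), with black bars for medians, open circles for genes not called and filled circles for genes called. The medians of the 5 lists lie within -0.27 to 0.12, and Xdh, with PI3Kdi between genotypes, is the 1 filled circle.

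Markers of other cells that can express AhR were followed beside these values. Of 10 genes of CD4, Th17 and innate lymphoid cells 4 were in the table, and Il17a, Il23r and Foxp3 were not among them. The summed level of these 4 in WT CTL was 306 to 359 FPKM with vehicle and 266 to 301 with PI3Kdi, and 323 to 395 and 285 to 318 FPKM in FOXO1-GFP KO CTL, nearly all of it Id2, which CD8 effector cells express as well. Cd4 itself was in the direction of Ahr and Tiparp between genotypes (log2 fold change -0.96 without and -1.27 with PI3Kdi, neither called) and, with the block, rose with PI3Kdi in WT (0.68, limma adjusted p = 0.0413). It had 0.44 to 0.57 and 0.83 to 0.95 FPKM in WT CTL and 0.09 to 0.44 and 0.12 to 0.51 FPKM in FOXO1-GFP KO CTL, without and with PI3Kdi. Kit, a receptor of progenitor and innate lymphoid cells, rose with PI3Kdi in FOXO1-GFP KO (log2 fold change 1.43, SE 0.20, limma adjusted p = 0.0356). Without and with PI3Kdi, Kit had 0.54 to 0.86 and 0.96 to 1.32 FPKM in WT CTL. In FOXO1-GFP KO CTL it had 0.29 to 0.46 and 1.07 to 1.17 FPKM. Its pair ratios were 1.34 to 2.44 in WT, where the main fit did not call it, and 2.46 to 3.69 in FOXO1-GFP KO. Of 10 B cell genes 3 were in the table, summing to 11.4 to 15.6 and 15.3 to 19.5 FPKM in WT CTL and 4.48 to 6.88 and 4.31 to 6.36 FPKM in FOXO1-GFP KO CTL, without and with PI3Kdi, and Ms4a1 was not among them. Of 13 myeloid and dendritic genes 5 were in the table, summing to 116 to 139, 169 to 267, 85.9 to 102 and 112 to 129 FPKM in the same order. Lyz2, S100a8, S100a9, Csf1r and Adgre1 were not among them. Most of the difference in that sum between genotypes was Ly6g, a neutrophil surface protein, at 72.9 ± 12.8 and 139 ± 41 FPKM in WT CTL and 36.5 ± 4.7 and 47.3 ± 5.5 FPKM in FOXO1-GFP KO CTL. Under PI3Kdi Ly6g was lower in FOXO1-GFP KO (log2 fold change -1.52, limma adjusted p = 0.0028), the 1 of the 5 called there. The authors list Ly6g among the mRNA of these CTL that p110δ regulates through FOXO1. Cst3 went the other way between genotypes, at 36.9 ± 7.7 and 44.5 ± 12.2 FPKM in WT CTL and 40.5 ± 3.3 and 50.6 ± 4.0 FPKM in FOXO1-GFP KO CTL, and without PI3Kdi 3 of the 5 genes were above 0. All 3 B cell genes were lower in value in FOXO1-GFP KO, and on average over PI3Kdi 2 of them were called. Thus the markers went both ways between genotypes. Of the 4 CD4, Th17 and innate lymphoid genes 1, Id2, was above 0 in each genotype comparison, and none was called. Cd4, Ly6g and the B cell genes had lower values in FOXO1-GFP KO, as Ahr and Tiparp had, while Id2 and Cst3 had higher ones. Kit and Zbtb7b also had lower means there. Without and with PI3Kdi, Zbtb7b was at 6.43 ± 0.56 and 6.02 ± 0.05 FPKM in WT CTL. In FOXO1-GFP KO CTL it was at 5.57 ± 0.33 and 5.13 ± 0.91 FPKM. Id2 was at 321 ± 28 and 278 ± 18 FPKM in WT CTL and 350 ± 36 and 296 ± 18 FPKM in FOXO1-GFP KO CTL, without and with PI3Kdi. The part of these markers in the values of the AhR genes was not tested.

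Likeness to other genes was measured over all 12 libraries on log2 values against the 9546 genes whose mean reached 1 FPKM, as a description, since libraries share their groups, pairs and scaling. The genes most like Ahr were Rtn4, Gmeb1 and Abtb2 (Pearson r 0.956, 0.952 and 0.952). Those most like Ahrr were Prr5, Cd96 and Ctss (0.946, 0.945 and 0.934), and those most like Tiparp were Cytip, Tgtp2 and Rnf19b (0.95, 0.941 and 0.934). Nqo1 was most like Prr13, Cox7a2l and Acd (0.921, 0.901 and 0.896). An r over 0.9 was reached by 58 genes for Ahr, 14 for Tiparp, 8 for Ahrr and 2 for Nqo1. Among the AhR genes themselves the closest were Ahrr with Cyp1b1 (0.924) and Ahr with Arnt (0.85), while Ahr with Ahrr stood at -0.07 and Nqo1 with Nfe2l2 at -0.01.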

How the data were processed

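Poly(A) RNA libraries were made from 300 ng of RNA with a stranded kit and sequenced as 75 bp paired reads. The authors aligned reads with STAR 2.7.1a to GRCm38.p6, counted genes of an Ensembl annotation, kept those that passed filterByExpr, scaled libraries by TMM and computed FPKM with the RPKM function of edgeR on summed exon length. The deposited FPKM have 2 decimals and 1 column per library, and genes removed by that filter were not analysed here. Positions and overlaps came from GENCODE M21 on GRCm38.

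The main fit used limma 3.58.1 in R 4.3.3 on log2(FPKM + 0.1), with 4 group means and limma's moderated variances with a trend on the mean. The genotype comparison averaged over PI3Kdi was fitted on 3 against 3 means of pairs. The call rule asked for a p under 0.05 after Benjamini-Hochberg adjustment across 13283 genes plus a fold change over 1.5. The method was tested on simulated data. Depth and reads were recovered from FPKM of genes up to 400 bp, and at a tolerance of 0.2 reads 100.0% of values of genes up to 500 bp came out whole, against 40.0% by chance. A depth of 12.9 to 48.0 M reads gives the reads stated beside the values, and counting error was not separated from the spread between libraries.

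Vehicle and PI3Kdi libraries of one number deviated from their group means together (Pearson r 0.594 to 0.838 within a genotype), whereas across genotypes r was 0.229 to 0.375 for replicate 1, 0.508 to 0.73 for replicate 3 and -0.499 to -0.28 for replicate 2. Since not every number passed 0.1 across genotypes, the pairing was used within a genotype only, for means and ratios of pairs and for the block within genotype. The main fit left the pairing out. For PI3Kdi it called 13 genes in WT and 6 in FOXO1-GFP KO, against 342 and 370 with that block. Members and gene lists were chosen with earlier results of these data known. Genes named from a list were up to 4 called ones of largest fold change and otherwise the 2 of highest FPKM. Cd4, Id2 and the within-library ratios were taken up after their values were seen. Alternatives were other pseudocounts, a filter at a mean of 1 FPKM, median centring, no trend, blocks on replicate number, limma voom on estimated reads and leaving out each library.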

Additional observations from a re-analysis of the deposited data

How the results depend on the processing

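The count of AhR genes called was 0 in each genotype comparison under all alternatives run except 1, the replicate block shared by all groups, where it was 1 (Ahr, without PI3Kdi). With the replicate block within genotype the count was 3 for the inhibitor response in WT and 4 for that in FOXO1-GFP KO, against 0 without it, counts that repeat the values by which the genes were chosen and test nothing, and it changed no count of AhR genes called in the genotype comparisons. Consensus correlation of that block was 0.757. Ahr and Tiparp stayed lower in FOXO1-GFP KO under all alternatives of the 3 genotype comparisons, with adjusted p of 0.0345 to 0.936 for Ahr and 0.103 to 0.998 for Tiparp. Leaving out each library or pair in turn turned the sign of values near 0. These were, averaged over PI3Kdi, Ahrr (-0.37 to 0.008), Cyp1b1 (-0.21 to 0.13), Nqo1 (-0.047 to 0.35) and Nfe2l2 (-0.0059 to 0.25). Without PI3Kdi they were Arnt (-0.39 to 0.023), Nqo1 (-0.30 to 0.063) and Nfe2l2 (-0.034 to 0.22), and with PI3Kdi Ahrr (-0.30 to 0.26), Cyp1b1 (-0.44 to 0.057) and Nfe2l2 (-0.0083 to 0.29). For the response to PI3Kdi in WT they were Arnt (-0.44 to 0.026) and Nqo1 (-0.091 to 0.50), and for the difference of responses Arnt (-0.295 to 0.171), Tiparp (-0.104 to 0.304) and Nfe2l2 (-0.118 to 0.212). The cause was not tested. Counted over all alternatives, 14 values of the genotype comparisons turned sign. A further 632 kept their direction and side of the threshold or, for responses to PI3Kdi, stayed within the spread of replicates whatever their sign. Beyond that spread 47 responses moved, 6 values passed the threshold under an alternative and 1 no longer did. Voom could not be run on the means of pairs. With 3 libraries a group, differences of the size of Tiparp's were not resolved over all genes by the fits run here. The authors' fit on read counts did call Tiparp between genotypes under PI3Kdi. Cyp1b1 was limited by its few reads.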
